A study of Ovis aries with 15 samples.

Results

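The mitochondrial ribosomal protein genes of the sheep mammary gland were taken as every feature whose name is MRPL or MRPS followed by a number and, in some, a letter A to C, and 75 of the 24691 features of the table bore such a name. The rule reads names and no measured value, although this family was picked for study with earlier results of these data known. All 75 passed the filter on low counts, among 13345 genes that did so, and each had a mean of at least 1 RPKM (reads mapped to the gene, set against its exon length and all mapped reads) in both physiological states. MRPS2 and members known today by other names are not in the set.

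The mammary tissue was needle biopsied from 2-year-old primiparous Romney ewes, at about day 135 of gestation (late pregnancy) and again at about day 15 post partum (lactation). RNA of several ewes was pooled before sequencing, giving 9 late pregnancy and 6 lactation libraries. All ewes were kept on the same level of feeding, and what differed was the pasture allowance of their own mothers in early gestation, which was ad libitum (HM), maintenance (MM) or sub-maintenance (LM), followed in all 3 groups by maintenance. Each dam nutrition group held 3 late pregnancy and 2 lactation pools. Because the same flock was sampled in both states, pools of both states may share ewes, and because a biopsy is a mixture of cells, fewer cells of a type and less RNA per cell cannot be told apart.

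Mitochondria make the core subunits of the respiratory chain on their own ribosomes, which read only the messages of the mitochondrial genome. The ribosomal RNAs come from that genome, but every protein of these ribosomes is encoded in the nucleus, made in the cytosol and imported. A large subunit (MRPL proteins) forms peptide bonds and a small subunit (most MRPS proteins) decodes the message, and both combine proteins shared with bacterial ribosomes and proteins found in mitochondria alone.

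By present nomenclature 49 members belong to the large subunit, among them MRPS30 and MRPS18A in spite of their names, and 25 to the small subunit. MRPS36 belongs to neither, since its product is now known as KGD4, a part of the 2-oxoglutarate dehydrogenase complex. Of the 74 ribosomal members, 45 have bacterial counterparts and 29 are mitochondria-specific. They are spread over 24 chromosomes, with 11 members on chromosome 3 and 10 on chromosome 1, and MRPL23 lies on an unplaced sequence.

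Between 7597938 and 19823166 reads fell on genes in the late pregnancy libraries and between 10352962 and 25679416 in the lactation libraries. The milk protein genes CSN2 and LALBA alone took 4.23 to 7.84% of the counted reads of the late pregnancy libraries and, in lactation, 27.3 to 30.0%. The share of the members together was 0.245 to 0.279% of the late pregnancy reads and 0.0678 to 0.0811% of those of lactation, ranges that lie far apart. The median member had 412 reads per late pregnancy library and 128 per lactation library, and the lowest count of any member in a library was 8.

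Levels were therefore compared as CPM, read counts set to a common library size, with that size scaled by trimmed mean of M values (TMM), which discounts such dominant genes. On that scale the summed level of the members was 1465 to 1682 CPM in late pregnancy (mean 1566 ± 70.9 SD, n = 9) and 1568 to 1703 CPM in lactation (1640 ± 54.3 SD, n = 6), so the ranges overlapped. A change below is relative to this scale, since with no scaling beyond total reads all 75 members were called lower, with a median log2 change of -1.88 where that of all genes was -1.94.

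Between late pregnancy and lactation the mitochondrial ribosomal protein genes moved little and in both directions. The test (edgeR quasi-likelihood, adjusted p under 0.05 over all tested genes) called 39 of 75 members, or 52.0%, where it called 68.4% of all tested genes. Of them 15 were lower in lactation, against a background of 35.2% of genes, and 24 were higher, against 33.1%. The median log2 change (lactation minus late pregnancy) was 0.03, with quartiles at -0.13 and 0.22, and over all genes it was -0.03, with quartiles at -0.54 and 0.40.

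The sign of the family's small shift depended on the scaling. Upper quartile scaling gave 30 lower and 12 higher, limma on the quantile-normalized RPKM gave 31 lower and 11 higher, and a minimum of 10 reads in every library gave 24 lower and 16 higher. With upper quartile scaling the median of all genes was itself -0.18, below the members' -0.12. It was -0.05 with limma, where the members' median was -0.10, and -0.01 with the minimum of 10 reads, where the members' was -0.04. The distance of the members' median from the median of all genes stayed between -0.05 and 0.16 under every scaling, filter and lane setting run.

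Most changes were small. The log2 change of 66 members, or 88.0%, lay within 0.5 of 0, where 52.9% of all tested genes did, and the median size of the change was 0.187 against 0.464. MRPL17 alone was called and changed more than 2-fold, where 22.1% of genes did so. Of the called members 33, or 84.6%, changed less than 1.5-fold, against 41.8% of all called genes. The standard error of the change was 0.080 at the median and 0.166 at the highest.

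**Figure D1:**
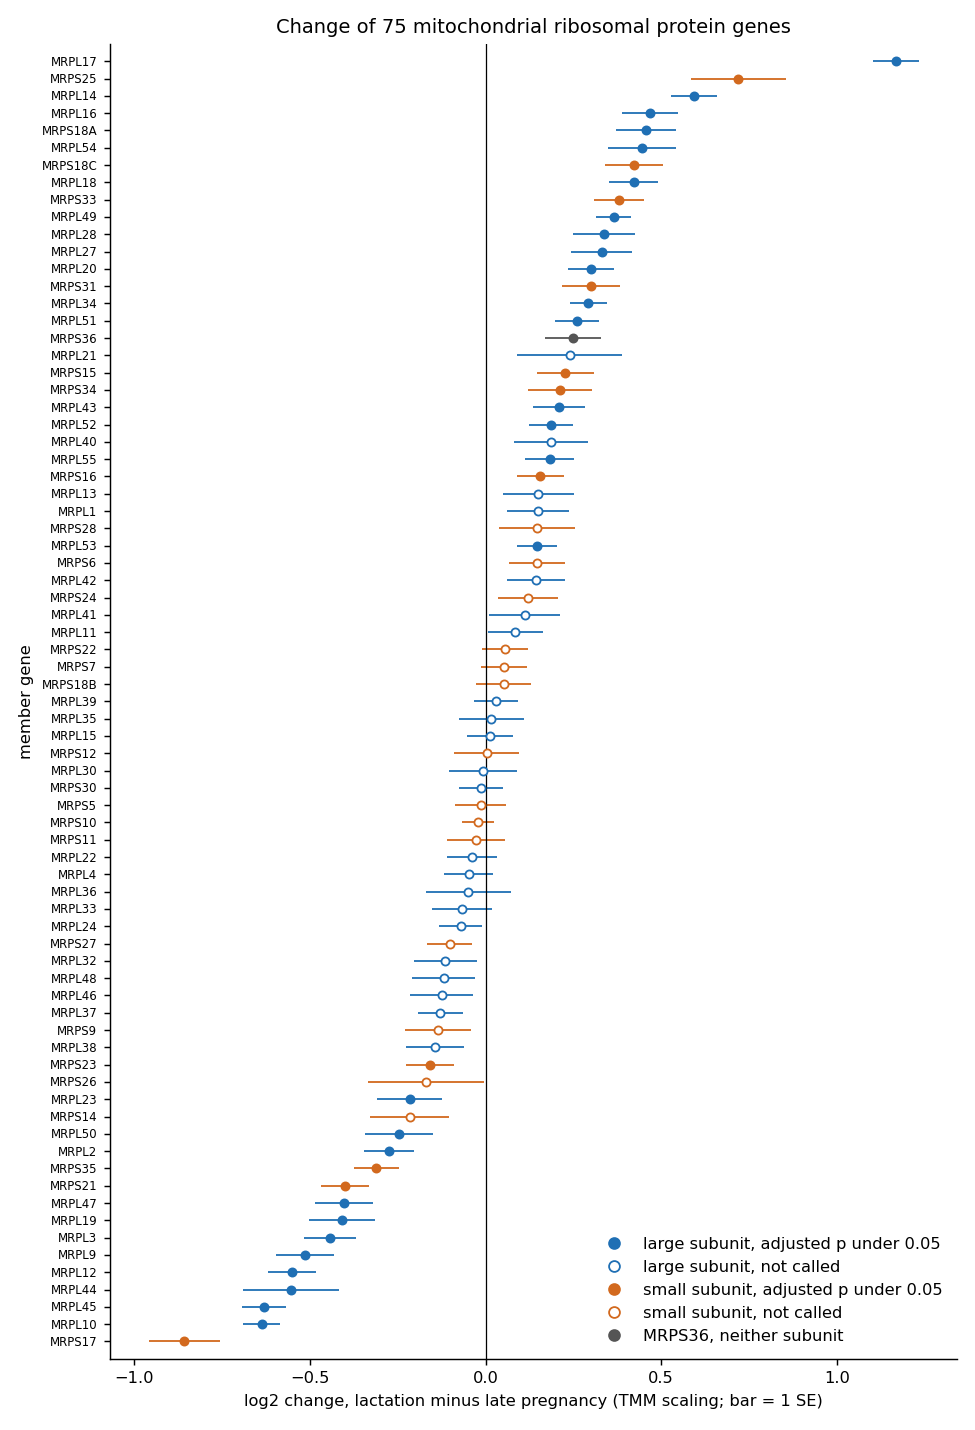
Log2 change (lactation minus late pregnancy, TMM scaling) of the 75 members in order, with bars of 1 standard error; blue is the large subunit, orange the small subunit, and filled points have an adjusted p under 0.05. The changes run from -0.86 for MRPS17 to 1.17 for MRPL17, and all 75 lie below 0 when libraries are scaled by total reads alone.

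In 10 members every lactation library lay below every late pregnancy library, which 20.0% of tested genes did, and in 12 members every lactation library lay above, as in 20.2% of tested genes. The states overlapped in the other 53. Within a state the members were even: the coefficient of variation over libraries had a median of 8.61% in late pregnancy and 10.7% in lactation. All 75 members were under 25% in late pregnancy and 72 in lactation.

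**Figure D2:**
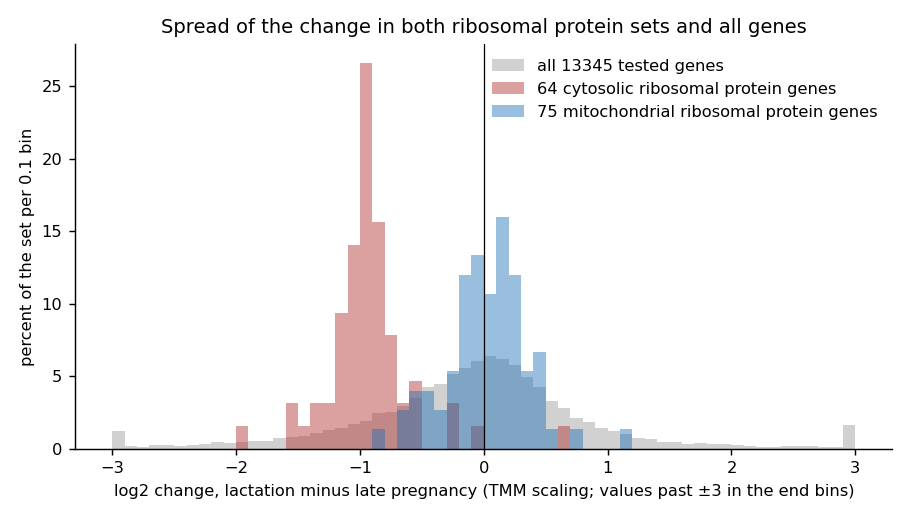
Distribution of the log2 change in bins of 0.1, as the percent of each set, for all 13345 tested genes (grey), 64 cytosolic ribosomal protein genes (red) and 75 mitochondrial ribosomal protein genes (blue). The blue set is centred near 0 and the red set near -0.94, on the TMM scale.

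MRPL17, a conserved large subunit protein beside the tunnel through which new peptides leave, had the largest change. The gene lies on chromosome 15 (45793706-45795186). Its level in the HM pools was 31.5, 30.9 and 35.7 CPM in late pregnancy and 74.95 and 87.6 CPM in lactation. In the MM pools it was 39.5, 39.2 and 32.3 CPM, then 74.3 and 75.6 CPM, and in the LM pools 38.6, 32.3 and 35.7 CPM, then 85.3 and 76.0 CPM. Every lactation library lay far above every late pregnancy library in all 3 dam nutrition groups. MRPL17 was 2.25-fold higher in lactation (log2 1.17 ± 0.066 SE, adjusted p = 5.1e-12). Its share of all members' reads, which no library scaling can alter, went from 2.00-2.48% in late pregnancy to 4.46-5.58% in lactation.

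The other 5 large rises were smaller. MRPS25, a mitochondria-specific small subunit protein on chromosome 19 (57043013-57100145), ran from 2.66 through a median of 2.93 to 4.06 CPM in late pregnancy and from 4.19 through 4.85 to 6.65 CPM in lactation (log2 0.72 ± 0.14 SE, adjusted p = 9.4e-05). It was among the members with the fewest reads, and its highest late pregnancy library lay close to its lowest lactation library. MRPL14, a conserved protein on the face of the large subunit where the assembly factor MALSU1 binds, lies on chromosome 20 (17718172-17721553). Its level ran from 55.6 through 63.9 to 75.7 CPM in late pregnancy and from 85.8 through 100.4 to 105.7 CPM in lactation (log2 0.59 ± 0.066 SE, adjusted p = 1.2e-07). The states did not overlap, and MALSU1 itself was also called higher (log2 0.30 ± 0.12 SE, adjusted p = 0.037).

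MRPL16, a conserved rRNA-binding protein on chromosome 15 (79982259-79987369), ran from 18.1 through 18.7 to 22.2 CPM in late pregnancy and from 22.7 through 25.9 to 34.6 CPM in lactation (log2 0.47 ± 0.080 SE). The states only just separated, and no more than 53.2% of its exon reads were uniquely placed, so its level is uncertain. By edgeR on uniquely placed exon reads alone MRPL16 was also called higher (log2 0.51, adjusted p = 9.8e-06). MRPS18A, on chromosome 20 (17255465-17280669), ran from 14.9 through 19.4 to 21.0 CPM in late pregnancy and from 21.98 through 24.8 to 28.2 CPM in lactation (log2 0.46 ± 0.086 SE). MRPL54, a mitochondria-specific large subunit protein on chromosome 5 (17772698-17777099), ran from 14.0 through 18.0 to 22.7 CPM and then from 21.2 through 25.04 to 26.9 CPM (log2 0.44 ± 0.097 SE). Of these 6 members MRPL54 alone had overlapping states, and its feature overlaps APBA3, which was also higher (log2 0.28 ± 0.11 SE). The feature of MRPS18A overlaps another as well, LOC101116771.

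MRPS17, a conserved protein that binds the ribosomal RNA of the small subunit, fell the most. The gene lies on chromosome 24 (27632569-27636772). Its level in late pregnancy was 19.7, 23.9 and 26.3 CPM in the HM pools, 19.4, 18.9 and 20.1 CPM in the MM pools and 26.1, 24.2 and 22.1 CPM in the LM pools. In lactation it was 10.8 and 14.1 CPM in HM, 11.1 and 13.8 CPM in MM and 10.7 and 13.5 CPM in LM. No lactation library reached the lowest late pregnancy library, and the level fell to 0.552-fold (log2 -0.86 ± 0.10 SE, adjusted p = 2.9e-07). MRPL17 gave 1.30 to 2.07 reads for each MRPS17 read in late pregnancy and 5.50 to 7.96 in lactation.

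**Figure D3:**
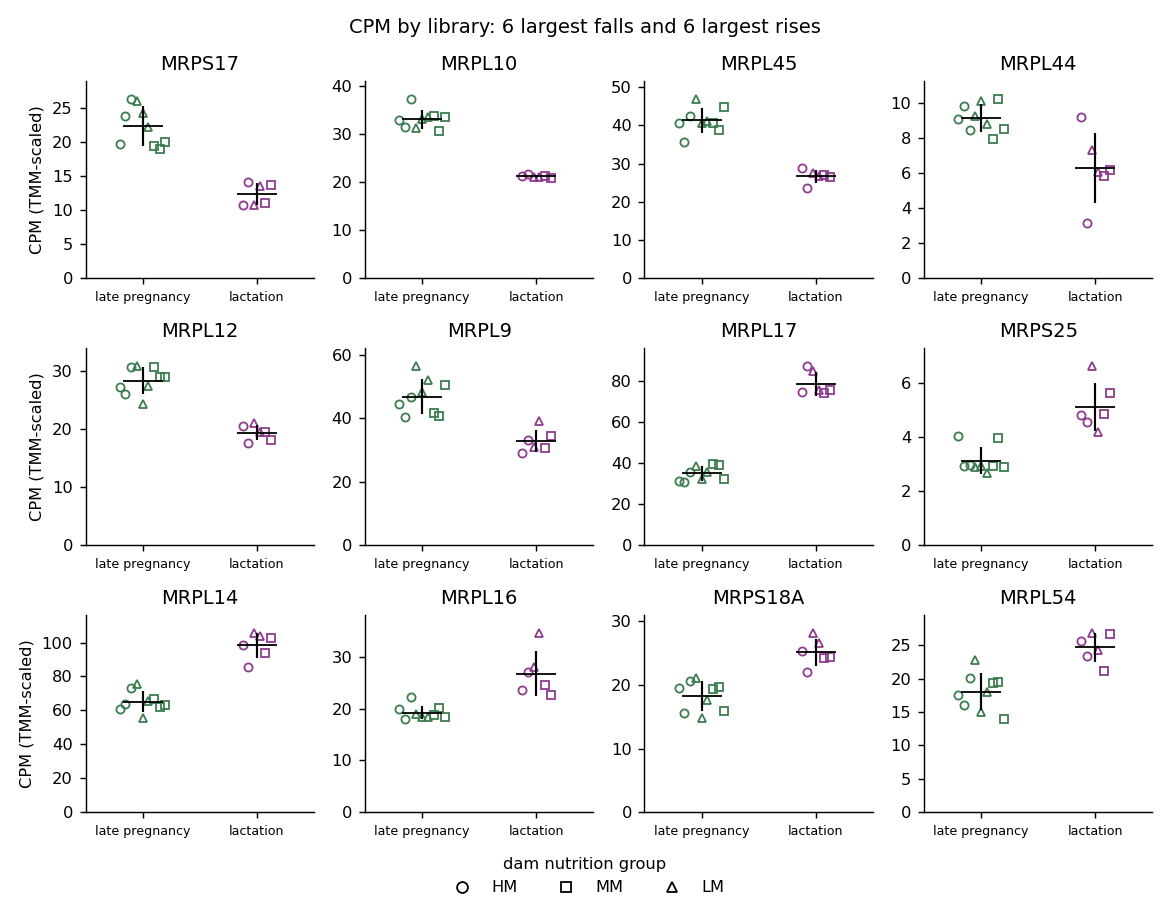
CPM (TMM-scaled, axis from 0) of the 6 members with the largest falls and the 6 with the largest rises, with a symbol for each library by dam nutrition group and the mean and SD of each state in black. MRPL44 and MRPL54 are the members whose states overlap; the 6 rises turn to falls when libraries are scaled by total reads alone.

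The stalk of the large subunit, which recruits the translation factors, held further falls. Of 3 members placed there 2 were called, a share of 66.7% that lies near the 68.4% of all tested genes. MRPL10, the base to which copies of MRPL12 bind, lies on chromosome 11 (38184194-38190195) and ran from 30.7 through 33.3 to 37.4 CPM in late pregnancy and from 21.0 through 21.2 to 21.8 CPM in lactation (log2 -0.64 ± 0.053 SE, adjusted p = 2.0e-09). Its lactation libraries were the tightest of any member, with a coefficient of variation of 1.37%. MRPL12, also on chromosome 11 (50278434-50282137), ran from 24.3 through 28.9 to 30.8 CPM and then from 17.6 through 19.4 to 21.0 CPM (log2 -0.55 ± 0.068 SE, adjusted p = 5.2e-07). MRPL11, which sits beside the stalk base, ran from 12.6 through 13.8 to 16.1 CPM and then from 12.5 through 15.2 to 16.7 CPM (log2 0.09 ± 0.078 SE, adjusted p = 0.34). Its states overlapped, while those of MRPL10 and MRPL12 were wholly apart. For each MRPL11 read the late pregnancy libraries held 2.16 to 2.61 MRPL10 reads and the lactation libraries 1.26 to 1.75, and 1.80 to 2.34 MRPL12 reads against 1.09 to 1.53.

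Of 8 members placed around the exit tunnel, 4 fell and 1, MRPL17, rose, a called share of 62.5% that lies near the 68.4% of all tested genes. MRPL45, which helps hold the ribosome at the inner membrane, lies on chromosome 11 (38535785-38552454) and ran from 35.6 through 40.7 to 46.9 CPM in late pregnancy and from 23.7 through 27.0 to 28.8 CPM in lactation (log2 -0.63 ± 0.063 SE, adjusted p = 2.5e-08), with no overlap. MRPL44, a mitochondria-specific protein on chromosome 2 (225105689-225113577), ran from 7.98 through 9.09 to 10.3 CPM and then from 3.17 through 6.15 to 9.23 CPM (log2 -0.55 ± 0.14 SE, adjusted p = 0.0013). Both extremes of MRPL44 in lactation were HM pools. MRPL47 fell by 0.40 ± 0.083 on the log2 scale. MRPL23 ran from 13.3 through 16.2 to 19.2 CPM and then from 10.99 through 14.3 to 15.2 CPM (log2 -0.22 ± 0.092 SE, adjusted p = 0.045), a call close to the threshold. It was lost without any of 9 single libraries, with log2 changes of -0.22 to -0.17 and adjusted p-values of 0.055 to 0.12: HM pools 1 and 3, LM pools 1 and 3 and MM pool 1 of late pregnancy, and both HM pools, LM pool 2 and MM pool 1 of lactation. The members of the tunnel that were not called were MRPL22, MRPL24 and MRPL39, with log2 changes of -0.04, -0.07 and 0.03.

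MRPL9, a conserved rRNA-binding protein on chromosome 1 (100596788-100603672), completed the 6 largest falls. It ran from 40.3 through 46.9 to 56.5 CPM in late pregnancy and from 29.2 through 32.1 to 39.0 CPM in lactation (log2 -0.51 ± 0.083 SE, adjusted p = 1.8e-05). Its feature overlaps OAZ3. MRPL50, a mitochondria-specific protein, ran from 17.6 through 18.8 to 22.4 CPM and then from 12.6 through 15.9 to 22.1 CPM (log2 -0.25 ± 0.097 SE, adjusted p = 0.031). Its states overlapped widely, and the call was lost without LM pool 1 or 2 of late pregnancy, or LM pool 1, MM pool 1 or MM pool 2 of lactation, with log2 changes of -0.22 to -0.18 and adjusted p-values of 0.053 to 0.11.

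Other zones of the ribosome held a few called members each, and zones were not tested against each other. Of 6 members in the central protuberance, which contacts the transfer RNAs, MRPL18 and MRPL27 rose and none fell. That is a called share of 33.3%, below the 68.4% of all tested genes. MRPL18 ran from 13.6 through 14.2 to 15.4 CPM and then from 16.7 through 19.0 to 22.4 CPM (log2 0.42 ± 0.070 SE). MRPL27, whose bacterial counterpart reaches the peptidyl transferase centre, lies on chromosome 11 (35839140-35844191). It ran from 22.9 through 27.4 to 31.6 CPM and then from 29.5 through 32.2 to 39.6 CPM (log2 0.33 ± 0.087 SE, adjusted p = 0.0022), with some overlap, and was not called with upper quartile scaling (log2 0.18, adjusted p = 0.062), limma (0.057, adjusted p = 0.50) or lane 7 libraries alone (0.099, adjusted p = 0.40). In the head of the small subunit MRPS31 rose and MRPS35 fell, out of 6 members, again a called share of 33.3%. None of the 3 members at the mRNA channel and decoding site (0.0%) was called by edgeR, adjusted or not.

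Over whole subunits, 11 of 49 large subunit members were lower and 16 higher, with a median log2 change of 0.02, and of 25 small subunit members 4 were lower and 7 higher (median 0.05). Among conserved members 10 of 45 were lower and 12 higher (median 0.00), and among mitochondria-specific members 5 of 29 were lower and 11 higher (median 0.06). The called shares of these classes, from 44.0 to 55.2%, all lay below the 68.4% of all tested genes, as that of the whole family did. With upper quartile scaling each of these 4 medians was below 0, from -0.15 to -0.09, where that of all genes was -0.18. Small subunit reads per large subunit read were 0.405 to 0.438 in late pregnancy and 0.379 to 0.400 in lactation, ranges that did not overlap. Without MRPL17 and MRPL14, chosen after their values were seen, the ratio was 0.445 to 0.479 and then 0.450 to 0.474. Leaving out large subunit members that rose lifts the lactation ratio by construction, so what the shift rests on was not tested.

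The 3 MRPS18 paralogs occupy different places in the ribosome. MRPS18C, the counterpart of the bacterial protein in the small subunit, ran from 7.43 through 8.33 to 9.69 CPM in late pregnancy and from 9.77 through 10.8 to 12.4 CPM in lactation (log2 0.42 ± 0.083 SE, adjusted p = 0.00016). MRPS18B, a separate small subunit protein, ran from 14.4 through 17.7 to 19.4 CPM and then from 16.0 through 17.6 to 20.2 CPM (log2 0.05 ± 0.079 SE, adjusted p = 0.58). MRPS18A, of the large subunit, rose as described above. MRPS18A and MRPS18C thus separated between states and MRPS18B did not, although the difference among the paralogs was not tested.

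Of the remaining members with a value of interest, MRPL49, a mitochondria-specific large subunit protein, ran from 43.6 through 49.7 to 51.9 CPM and then from 58.5 through 64.5 to 66.1 CPM (log2 0.36 ± 0.049 SE, adjusted p = 1.6e-06). Its feature overlaps SYVN1, which rose more (log2 1.67 ± 0.083 SE), and whether the counting used strand is not given in the sources used here. MRPS33 ran from 18.4 through 19.6 to 21.95 CPM and then from 22.6 through 25.6 to 33.0 CPM (log2 0.38 ± 0.071 SE, adjusted p = 8.4e-05). MRPS36, whose product is the dehydrogenase subunit, ran from 16.2 through 20.2 to 23.3 CPM and then from 21.5 through 23.2 to 29.0 CPM (log2 0.25 ± 0.080 SE, adjusted p = 0.0095). MRPS36 was not called with upper quartile scaling (log2 0.10, adjusted p = 0.26), limma (0.081, adjusted p = 0.34), 10 reads in every library (0.17, adjusted p = 0.067) or lane 7 libraries alone (0.17, adjusted p = 0.23). MRPL49 and MRPS33 separated wholly between states and MRPS36 did not.

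MRPS6, MRPL1 and MRPS26 were not called. MRPS6, a conserved small subunit protein, ran from 13.3 through 15.1 to 17.8 CPM and then from 13.7 through 16.9 to 19.7 CPM (log2 0.15 ± 0.079 SE, adjusted p = 0.11). Without LM pool 1 of late pregnancy or LM pool 2 of lactation MRPS6 was called, at 0.18 (adjusted p = 0.038) and 0.19 (adjusted p = 0.040). MRPL1, of the mobile L1 stalk, ran from 12.4 through 14.1 to 16.2 CPM and then from 12.8 through 15.3 to 20.2 CPM (log2 0.15 ± 0.089 SE, adjusted p = 0.14). MRPS26, a mitochondria-specific small subunit protein, ran from 2.55 through 3.09 to 3.70 CPM and then from 1.76 through 2.50 to 3.997 CPM (log2 -0.17 ± 0.17 SE, adjusted p = 0.37). It had the widest error of all members, and with lane 7 libraries alone it was called lower (log2 -0.63, adjusted p = 0.029), with lane 8 libraries alone not (0.19, adjusted p = 0.47).

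Some members are neighbours. On chromosome 11 MRPL10 and MRPL45 lie 345.6 kb apart and both fell, by 0.64 and 0.63 on the log2 scale. On chromosome 20 MRPS18A and MRPL14 lie 437.5 kb apart and both rose, by 0.46 and 0.59, but MRPL2, 508.3 kb on the other side of MRPS18A, fell by 0.27. MRPL46 and MRPS11 on chromosome 18 are 0.075 kb apart, and neither was called, with log2 changes of -0.13 and -0.03. There were 7 such adjacent pairs within 1000 kb, and no test was made of them.

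Levels can be compared between members only per length, as RPKM. In late pregnancy the mean RPKM ran from 9.83 ± 1.15 SD for MRPL44 to 75.1 ± 5.94 SD for MRPL14, with a median of 25, and in lactation from 1.97 ± 0.661 SD for MRPL44 to 39.3 ± 2.23 SD for MRPL17, with a median of 7.43. RPKM is set against all reads, so every member is lower in lactation on this scale. Within each state most members lay close together, since the upper quartile was 1.94 times the lower in late pregnancy and 1.99 times in lactation.

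The order of the members was largely kept, with a Spearman correlation of 0.897 between states over the 75 members, which share their libraries. MRPL14, MRPL17, MRPL27 and MRPL9 had the highest mean RPKM over all libraries, and MRPL44, MRPS26 and MRPL1 the lowest. MRPL14 stood above MRPL17 in late pregnancy (75.1 ± 5.94 against 60.3 ± 6.78 SD) and below it in lactation (32.9 ± 2.57 against 39.3 ± 2.23 SD), beyond the SDs in each state. MRPL27 (58.4 ± 5.50 SD) and MRPL9 (56.2 ± 7.24 SD) did not differ beyond their spread in late pregnancy, but in lactation MRPL27 stood higher, at 21.2 ± 2.23 against 11.4 ± 1.05 SD. At the low end MRPS26 and MRPL1 were at 10.7 ± 1.04 and 10.7 ± 1.47 SD in late pregnancy and within their spread of MRPL44.

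**Figure D4:**
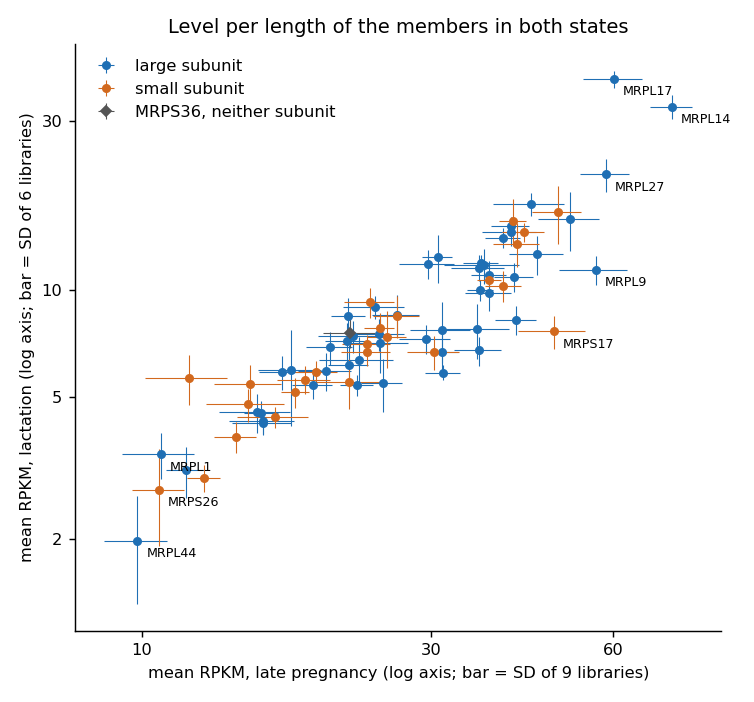
Mean RPKM of each member in lactation against late pregnancy, on log axes, with bars of 1 SD over 9 and 6 libraries and colours by subunit. Members fall along a line over a wide range, from MRPL44 at the bottom left to MRPL14 and MRPL17 at the top right, and MRPS17 lies to the right of the line.

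The members' exons are short, with a median summed length of 972 bases against 2047 over all tested genes. Members called lower had a median of 1207 bases and members called higher 895 bases. Over the members the Spearman correlation of change and exon length was -0.30, where it was 0.02 over all tested genes. The part of length in the changes was not tested.

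Reads across exon junctions of the same genes gave a similar picture. Of 74 members tested, 17 were called lower, against 33.0% of all genes, and 14 higher, against 31.3%. Of these, 14 lower and 14 higher calls were shared with the exon reads, none was opposite, and the changes correlated at r = 0.96 over members. Junction reads are a subset of exon reads, so this is not an independent measure.

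Intron reads, counted from the rest of each gene, followed the exon changes little. Of 57 members tested, 13 were called lower, against 29.0% of genes, and 8 higher, against 29.0%. Of these, 6 were lower and 3 higher by both kinds of reads and 4 were called in opposite directions. Across the 57 members the changes had r = 0.07. This takes in MRPS35, far from the others at an intron change of 3.47, and r was not computed without it. MRPS17 was lower by both kinds of reads, with an intron change of -0.35 (adjusted p = 0.011). MRPS25 was higher by both, with an intron change of 0.95 (adjusted p = 0.00024).

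MRPS35, a small subunit protein on chromosome 3 (186845066-186892622), had the largest contrast and is named here after its values were seen. Its intron reads were 0.5995 to 1.29 CPM in late pregnancy and 6.15 to 13.9 CPM in lactation, while its exon reads were 18.0 to 22.4 CPM and then 14.5 to 17.9 CPM. The intron reads rose by 3.47 (adjusted p = 1.1e-14), which ranked 88 among 10344 genes, and the exon reads fell by 0.31 ± 0.064 on the log2 scale (adjusted p = 0.00025). The other opposite calls were MRPL20, MRPL55 and MRPS15, whose exon reads rose by 0.30, 0.18 and 0.23 and whose intron reads had changes of -0.48, -0.56 and -0.47.

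MRPL48 and MRPS6, also chosen after their values were seen, had intron reads that rose while the exon reads were not called. Those of MRPL48 were 0.541 to 0.940 CPM in late pregnancy and 1.23 to 2.86 CPM in lactation (log2 1.28), resting on 7 to 26 reads a library. Those of MRPS6 were 28.2 to 40.5 CPM and then 60.5 to 80.7 CPM (log2 0.81), above its exon level in both states. The gene SLC5A3 lies within the MRPS6 feature and is listed at 0 reads in all 15 libraries, so what the MRPS6 intron reads hold cannot be told from the table.

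**Figure D5:**
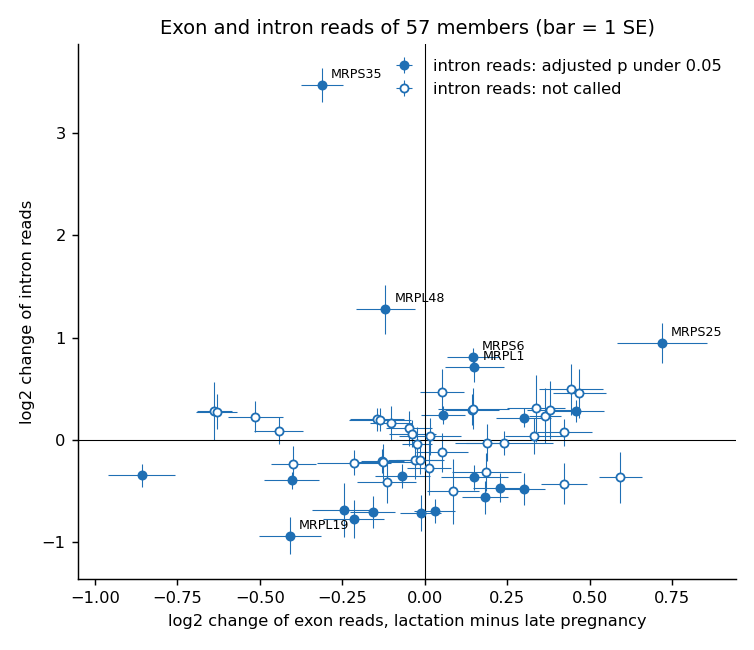
Log2 change of intron reads against log2 change of exon reads (lactation minus late pregnancy, TMM scaling, bars of 1 standard error) for the 57 members with enough intron reads; filled points have an intron adjusted p under 0.05. MRPS35 stands alone at an intron change of 3.47, and points lie on every side of the origin; with total-read scaling 40 members were lower by intron reads and 2 higher.

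The cytosolic ribosomal proteins, which form the ribosomes that make the milk proteins, were lower in lactation almost throughout. Of 64 tested, 61 were lower in lactation and 1 was higher, with a median log2 change of -0.94, and 23 fell by more than 2-fold. The called share was 96.9% against 68.4% of all tested genes, of which 22.1% were called and changed more than 2-fold either way. Their summed level was 50070 to 62420 CPM in late pregnancy and 25470 to 30910 CPM in lactation. For every read on a mitochondrial ribosomal protein gene there were 31.7 to 37.5 reads on cytosolic ones in late pregnancy and 16.3 to 19.2 in lactation, a ratio that does not depend on scaling and whose states did not overlap.

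These ribosomes translate the messages of the mitochondrial genome alone. Of 12 mitochondrial genome genes tested, 10 were higher in lactation and none lower, with a median log2 change of 0.71, whereas all 12 were lower with total reads alone. The called share was 83.3%, against 68.4% of all tested genes. With upper quartile scaling, DESeq2, limma, no filter or a minimum of 10 reads in every library, 1 gene was called lower. ND5 (log2 0.95 ± 0.057 SE) and ND6 (0.85 ± 0.071 SE), subunits of complex I, rose the most. ND3 (-0.20, edgeR adjusted p = 0.054, just over the threshold) and COX2 (0.11) were not called, and ATP8, with at most 11 reads in any library, did not pass the filter. There were 12.3 to 14.9 reads on mitochondrial genome genes per member read in late pregnancy and 19.3 to 23.6 in lactation, again without overlap. No gene of this list could be tested on unique exon reads, as holds for features without an annotated transcript, which are counted by whole-gene reads. Unique placement of these reads was thus not checked.

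Of 13 genes tested from a list for mitochondrial translation, 7 were lower and 1 higher, with a median log2 change of -0.20. That is a called share of 61.5%, where 68.4% of all tested genes were called. Upper quartile scaling and limma each gave 11 lower and 0 higher. The list holds translation factors and also LRPPRC and SLIRP, which are RNA-binding proteins and not such factors. GFM2, which acts in recycling ribosomes after termination, fell by 0.94 ± 0.066, from 22.8-25.7 to 11.2-14.1 CPM. MTFMT, which formylates the initiator transfer RNA, fell by 0.56 ± 0.11, and TUFM, the elongation factor that delivers transfer RNAs, by 0.37 ± 0.069. MTIF3, an initiation factor, rose by 0.23 ± 0.058, but was not called higher with upper quartile scaling or limma. LRPPRC was among the 7 falls (log2 -0.44 ± 0.048 SE), from 73.4-85.0 to 54.8-62.4 CPM. The reads on the whole list per member read, LRPPRC included, were 0.212 to 0.236 in late pregnancy and 0.176 to 0.194 in lactation.

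Of 23 assembly factors tested, 6 were lower and 6 higher, with a median log2 change of 0.02. That is a called share of 52.2%, below the 68.4% of all tested genes. With upper quartile scaling 10 were lower and 2 higher. RPUSD4 (-0.86 ± 0.10 SE) and GTPBP10 (-0.65 ± 0.079 SE), which act on the large subunit's RNA, fell the most, and METTL15 (0.66 ± 0.23 SE), a methyltransferase for small subunit RNA, and MTG1 (0.43 ± 0.079 SE), a GTPase, rose the most. METTL15 was at 0.640 to 1.58 CPM and then 1.13 to 2.86 CPM, on the order of 1 CPM. Of 7 mitoribosomal proteins with other names, GADD45GIP1 (-0.31 ± 0.096 SE) and PTCD3 (-0.25 ± 0.078 SE) fell, ICT1 (0.36 ± 0.072 SE) rose, and DAP3, a GTP-binding small subunit protein, had a log2 change of -0.02 ± 0.080 SE. The called share of these 7 was 42.9%, below the 68.4% of all tested genes.

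Of 10 genes of mitochondrial DNA replication, transcription and RNA upkeep, 2 fell and 4 rose. That is a called share of 60.0%, where 68.4% of all tested genes were called. With upper quartile scaling 5 fell and 2 rose. PNPT1, an RNA-degrading enzyme, fell by 0.54 ± 0.061, and SSBP1, which binds single-stranded mitochondrial DNA, rose by 0.83 ± 0.082. POLG2 fell by 0.30 ± 0.078 and MTERFD3 rose by 0.40 ± 0.068. TFAM was not found by name among the features. Of 7 regulators of mitochondrial biogenesis tested, 3 fell and 2 rose, a called share of 71.4% that lies near the 68.4% of all tested genes. MYC, which also drives cytosolic ribosome genes, ran from 46.3 to 56.7 CPM and then from 11.9 to 18.2 CPM (log2 -1.80 ± 0.083 SE). PPARGC1A had the same fitted change (log2 -1.80 ± 0.44 SE) on at most 5 reads in any lactation library. PPRC1, a related coactivator, rose by 0.95 ± 0.066 and GABPA, an ETS-family activator, by 0.33 ± 0.0998.

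Cell type markers moved as well, where 35.2% of all tested genes were called lower and 33.1% higher. The luminal epithelium markers were called higher in 6 of 7, with KRT8 not called, and in 4 with upper quartile scaling or limma. Their summed level, mostly CSN2, was 25090 to 51770 CPM and then 543400 to 696100 CPM. All 4 endothelial markers and all 5 T cell markers were lower, the latter with summed levels of 39.7 to 63.5 CPM and then 12.8 to 19.5 CPM. Of 4 fibroblast and 4 macrophage markers, 3 each were lower, with summed levels of 352.8 to 626.5 then 224.9 to 371.8 CPM and of 99.9 to 132.3 then 49.1 to 72.5 CPM. Of 5 myoepithelial markers 2 were lower and 2 higher, and none of 3 adipocyte markers was called by edgeR, adjusted or not, with log2 changes of -0.61 to 0.05. No marker tested was at 0 in all libraries, and the part of cell composition in the members' changes was not tested.

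The nutrition of the dams was compared over the 9 late pregnancy libraries, to ask whether the feeding of the mother left a mark on her daughter's gland. No member passed the adjusted threshold of edgeR, and neither did any gene (0.0% of tested genes). Without adjustment 5 members had p under 0.05, where 4.15% of all tested genes did. By edgeR's quasi-likelihood test the lowest unadjusted values were those of MRPL50, MRPL1 and MRPS17, and no member had an adjusted p below 0.9997.

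MRPL50 was at 17.9, 19.5 and 18.8 CPM in the HM pools, 17.9, 18.3 and 17.6 CPM in the MM pools and 22.4, 21.8 and 20.7 CPM in the LM pools. The LM pools lay above the others in late pregnancy, but in lactation they were at 12.6 and 22.1 CPM, the lowest and the highest of the state. MRPL1 was at 12.4, 13.1 and 12.6 CPM in HM, 16.2, 15.6 and 14.8 CPM in MM and 13.0, 14.1 and 14.8 CPM in LM. Neither pattern holds up against the number of genes tested.

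Whether the change between states differed by dam nutrition was tested as an interaction over all 15 libraries. No member and no gene was called by edgeR (0.0%). Without adjustment 3 members had p under 0.05, against 6.49% of all tested genes, and the lowest adjusted p of a member was 0.75. MRPS26 had the lowest unadjusted value, with LM pools at 3.80 and 3.997 CPM in lactation and the other lactation pools at 1.76 to 2.71 CPM. DESeq2 called no member in either comparison either, with 3 and 2 members at an unadjusted p under 0.05, while it called 20 and 14 genes of the whole table.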

How the data were processed

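Paired-end reads of TruSeq libraries from pooled mammary RNA were mapped by the authors with CLC Genomics Workbench. The submitters' notes name the sheep build Oar_v3.1 and the study's methods a later version, and coordinates are those of the deposited table. The sources differ on whether lactation pools held 2 or 3 ewes. The authors deposited raw counts of exon, unique, junction and whole-gene reads, and RPKM per library with a quantile-normalized RPKM. Columns of the authors' own comparisons (fold changes, p-values) were not used.

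Exon read counts were tested with edgeR 4.0.16 in R 4.3.3 (TMM, filterByExpr, quasi-likelihood F-test, Benjamini-Hochberg over all tested genes), after a check on simulated data. For 5583 features without an annotated transcript, whole-gene reads stood in for exon reads. Intron reads were whole-gene minus exon reads, for features with an annotated transcript. DESeq2 1.42.0 and limma 3.58.1 (log2 of quantile-normalized RPKM plus 1) were alternatives. p-values measure the spread between pools.

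The family and the gene lists were chosen with earlier results of these data known. Named members were the 6 largest called rises and falls, the 4 highest and 3 lowest by RPKM, MRPS18 paralogs, stalk proteins, MRPS36, the 3 lowest p for dam nutrition and members with an outlying library. Of other lists, the 2 largest called changes in each direction and fixed genes were named. The cytosolic ribosomal protein and cell type marker lists are given by counts and summed levels instead. Others (such as MALSU1, LRPPRC, MRPL18 and MRPL47) were added after their values were seen.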

Additional observations from a re-analysis of the deposited data

Results flagged for a closer look

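In 6 of 152 sets of libraries within a state, which were those of each member and of the members' summed level, a library lay far from the others by Dixon's criterion, where chance gives about 1 in 20. MRPL10 was at 37.4 CPM in HM late pregnancy pool 3, the others at 30.7 to 33.9 CPM, and MRPL16 was at 22.2 CPM in the same pool, the others at 18.1 to 20.1 CPM. MRPL23 was at 10.99 CPM in HM lactation pool 1, the others at 13.9 to 15.2 CPM, and MRPS33 was at 33.0 CPM in the same pool, the others at 22.6 to 25.8 CPM. MRPL49 was at 43.6 CPM in MM late pregnancy pool 3, the others at 48.0 to 51.9 CPM, and MRPS6 was at 17.8 CPM in LM late pregnancy pool 1, the others at 13.3 to 15.6 CPM.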

How the results depend on the processing

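With total reads alone 75 members were lower, 0 higher and the median was -1.88; the members named as higher or unchanged all turned lower, with MRPL17 at -0.74, MRPS25 -1.19, MRPL14 -1.31, MRPL16 -1.44, MRPS18A -1.44, MRPL54 -1.46, MRPS18C -1.48, MRPS33 -1.52, MRPL49 -1.54, MRPL27 -1.58, MRPS36 -1.66, MRPL1 -1.76, MRPS6 -1.76, MRPL11 -1.83 and MRPS18B -1.86. Upper quartile scaling gave 30 lower, 12 higher and a median of -0.12, with MRPL1 at -0.000317, MRPS6 -0.00363, MRPL11 -0.0653 and MRPS18B -0.0984. The median of all genes was then -0.18. limma gave 31 lower, 11 higher and a median of -0.10, with MRPS6 at -0.0367, MRPL11 -0.0841 and MRPS18B -0.0991. A minimum of 10 reads in every library gave 24 lower members, with MRPS18B at -0.0322. Intron reads gave 40 lower and 2 higher members with total reads alone and 3 higher with the minimum of 10 reads. The lane named in the column headers was examined after seeing the data, and the labels say that data of both lanes were combined: lane 7 libraries alone gave 12 higher members, with MRPS18B at -0.0964 and MRPL11 -0.0204, and lane 8 libraries alone gave a median of 0.12, with MRPS26 at 0.194 and, with lane 7 alone, called at -0.63 (adjusted p = 0.029). The call of MRPS25 was lost with lane 7 alone (0.45, adjusted p = 0.082), that of MRPL50 with lane 7 (-0.15, adjusted p = 0.23) and with lane 8 (-0.32, adjusted p = 0.093), that of MRPS33 with limma (0.15, adjusted p = 0.051), and that of MRPL23 with the replicate block (-0.20, adjusted p = 0.10), DESeq2 (-0.21, adjusted p = 0.055), dam nutrition as covariate (-0.22, adjusted p = 0.055), lane 7 (-0.29, adjusted p = 0.077) and lane 8 (-0.15, adjusted p = 0.36). The calls lost by MRPL27 and MRPS36 stand beside their values. The cause of these differences was not tested. Leaving out each library in turn gave 12 to 16 lower and 21 to 26 higher members and medians of 0.02 to 0.06. Libraries with the same dam nutrition group and pool number correlated at -0.028 to 0.092, and 2 of 6 correlated best with their own number, so the numbers are not shown to pair the libraries; with the replicate block 14 members were lower, 20 were higher and the median was 0.02. The alternative on promoter motifs was not run, since no sequences were at hand. At these depths changes of about 0.15 were called at standard errors of 0.056 (MRPL53) and 0.068 (MRPS16), but not at 0.079 (MRPS6). With errors near 0.080, changes of 0.23 (MRPS15) and 0.25 (MRPS36) were called.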
